A study of Strongylocentrotus purpuratus with 191 samples.

Results

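Erg, Tel, Ets1 and Hex are transcription factor genes of the mesoderm of the sea urchin embryo, measured here in the purple sea urchin, Strongylocentrotus purpuratus, at the gastrula stage. They were chosen by name: every probe that the deposited probe annotation assigns to 1 of the 4 genes was taken, which gave 4 of the 74 genes and 15 of the 336 probes of the normalized table. The non-normalized table held 17 probes of the same genes among 384, because 2 Erg probes are in that table alone. Total RNA came from 191 cultures of whole embryos, each read on 1 array of a custom Illumina DASL panel, an assay that extends and ligates short oligonucleotides on cDNA. The parents were 8 females and 8 males in 2 blocks, named 3 and 4, and inside a block each of 4 females was crossed with each of 4 males. The 32 crosses were raised at 12 °C, 15 °C or 18 °C, mostly as 2 replicate cultures, which gave 64, 63 and 64 cultures. No strain or allele is named in the labels, females and males of a block bear the same names although they are separate animals, and every cross shares its parents with others, so crosses are not independent families. Each block was run on a plate of its own, and the 2 cannot be told apart.

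Ets1, Erg and Tel carry an ETS domain, a winged-helix fold that binds DNA around a GGA core. Hex does not: it is a homeodomain protein, and it is grouped here with the ETS genes only by the choice of members. In sea urchins, maternal and early zygotic Ets1 acts near the top of the network that specifies the skeletogenic mesenchyme, the cells that enter the blastocoel and secrete the larval skeleton. Erg and Hex work one tier below it, where together with the homeobox gene Tgif they hold one another active and feed the genes of biomineralization, and both are used again in other mesoderm. Tel is an ETS gene of the same mesenchyme.

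The probes were not equally informative, so their signal is given first, with the sequences on which the results turn. Where an exon has several probes they are told apart by letters. The sequences are those of the deposited annotation, 5′ to 3′ as listed, with no bases in capitals because no motif was searched. The first 4 are the Erg probes whose signal differed between 12 °C and 18 °C, then come the only probe of Ets1 and of Hex that was detected in most cultures and the Tel probe detected in all cultures, and the last 3 are Ets1 probes near background.
Erg exon 1: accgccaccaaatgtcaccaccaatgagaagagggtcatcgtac
Erg exon 2 b: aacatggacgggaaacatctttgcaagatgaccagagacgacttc
Erg exon 3: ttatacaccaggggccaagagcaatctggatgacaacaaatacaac
Erg exon 4: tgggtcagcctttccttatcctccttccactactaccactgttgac
Ets1 exon 1: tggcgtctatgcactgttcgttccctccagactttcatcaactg
Hex exon 2: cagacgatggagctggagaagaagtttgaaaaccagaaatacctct
Tel exon 3: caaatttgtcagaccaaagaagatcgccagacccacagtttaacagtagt
Ets1 exon 6 a: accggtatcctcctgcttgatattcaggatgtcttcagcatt
Ets1 exon 6 b: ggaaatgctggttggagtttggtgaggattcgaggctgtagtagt
Ets1 exon 6 c: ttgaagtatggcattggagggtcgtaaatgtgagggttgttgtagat

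Erg was measured well by nearly all of its probes, Tel by 1 probe clearly and by a pair weakly, and Ets1 and Hex by a single probe each. A probe was called detected in a culture where under 0.05 of the 27 negative controls of the same array reached its signal. All 6 Erg probes were detected in more than 50% of cultures on both plates, and 4 of them in every culture. All 3 Tel probes passed the same majority mark, but the exon 2 a probe was detected in 51.0% of block 3 cultures and 52.6% of block 4 cultures, against 100% for the exon 3 probe. For Ets1, the exon 1 probe exceeded the mean of the negative controls by 3.95 log units in block 3, by 4.95 in block 4, and was detected in every culture. The exon 2 probe of Ets1 stood 0.01 and 0.21 above them, exon 6 a -0.05 and -0.25, and exon 6 c -0.06 and -0.01. The exon 6 b probe of Ets1 stood at 0.14 in block 3 and 1.67 in block 4, and was detected in 1.04% and 41.1% of cultures. The gene value of Ets1 in the normalized table is therefore a mean of 1 bright probe and 4 probes at or near background. Averaged over its 5 probes, Ets1 stood 0.80 and 1.31 above the negative controls in blocks 3 and 4. A single bright probe does not settle the level of the gene. The Hex exon 2 probe stood 2.15 and 4.26 above the negative controls, and the exon 4 probes of Hex were detected in 13.7% to 48.4% of cultures. The files list all probes as of one kind, and no transcript sequence was at hand to place them.

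**Figure D1:**
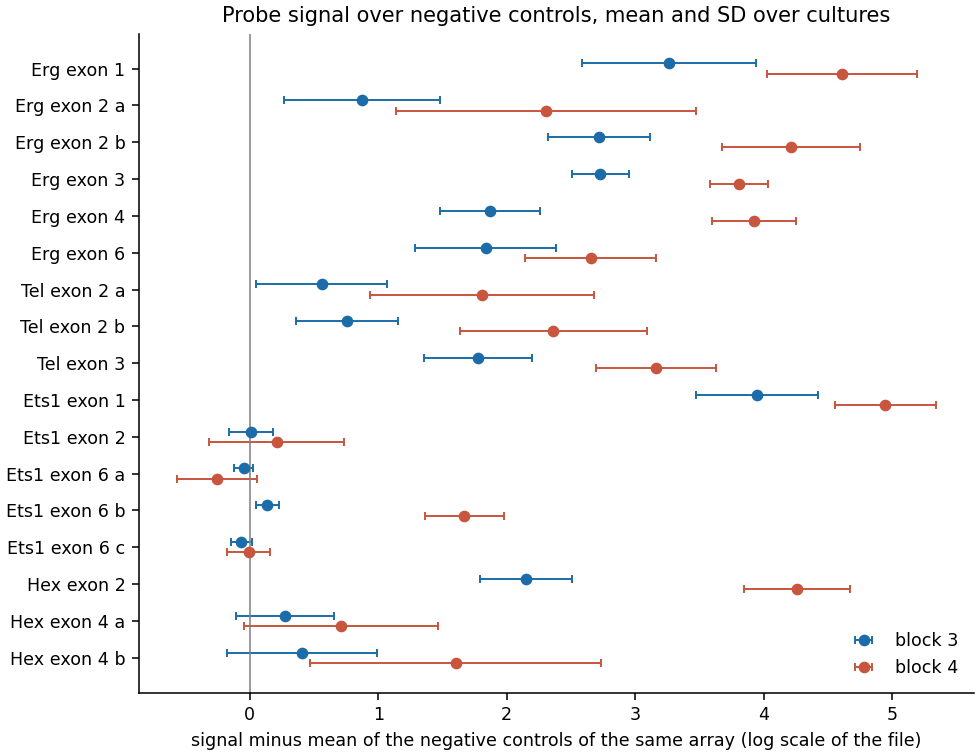
Signal of the 17 probes of the 4 genes minus the mean of the negative controls of the same array (x axis, on the log scale of the non-normalized table), as mean and SD over the 96 cultures of block 3 and the 95 of block 4. The exon 2 and exon 6 probes of Ets1 lie at the level of the negative controls in block 3, while its exon 1 probe stands at 3.95.

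The letters of the Ets1 exon 6 probes also read unlike those of the other members. In a description added after the signals had been seen, a codon table was fitted to all 384 gene probes at once, with the reading frame of each probe unknown. The fit started with most weight on the listed strand and re-estimated it over the panel, so a high weight for that strand is partly built in. It gave the listed strand 88.0% or more for the 12 probes of Erg, Tel and Hex, and 90.4% and 93.6% for Ets1 exon 1 and exon 2. For Ets1 exon 6 a, b and c it gave 8.9%, 2.02% and 0.565%, which favours the reverse complement as the coding strand. Over the panel, 41 of 384 probes leaned to the reverse strand, and 23 of these 41 were still detected in most cultures of block 3, as were 297 of the other 343. For 15 probes, with Ets1 exon 6 a, b and c among them, the reverse strand had over 90%. Of these 15, 5 were detected in most cultures of block 3. Whether the strand has a part in the low signal of the Ets1 exon 6 probes was not tested.

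The panel as a whole set the frame for these values. Array medians of the non-normalized signal averaged 9.88 over the 96 cultures of block 3, with an SD of 0.337, and 12.2 over the 95 of block 4, with an SD of 0.153. In block 3 they were lower at 12 °C (9.65) than at 15 °C (9.95) and 18 °C (10.0). Of 12 markers chosen for cell types of the gastrula, 8 were on the normalized panel, including Msp130 and SM50 of the skeletogenic mesenchyme, Endo16 of the gut and gcm of pigment cells, and all 8 had a probe detected in most cultures. Warmer cultures were sampled earlier: the median sampling time, whose unit is not stated, was 37.5 at 12 °C, 28.4 at 15 °C and 23.2 at 18 °C. Median culture stage scores were 0.32, 0.36 and 0.34. Plate rows nearly followed temperature, so a row and a temperature can be set apart only in the few rows that held both.

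Warmth was accompanied by a lower Erg signal, while Tel, Ets1 and Hex did not pass the test as genes. The normalized log2 values of a probe have a mean near 0 on each plate, so they can be compared between temperatures and parents of a block but give no level between blocks or between genes. In block 3 the Erg cross means ran from -0.46 to 0.50 with a median of 0.14 at 12 °C, from -0.32 to 0.49 with a median of -0.02 at 15 °C, and from -0.49 to 0.51 with a median of -0.12 at 18 °C. In block 4 they ran from -0.32 to 0.39 with a median of 0.07 at 12 °C, from -0.42 to 0.48 with a median of 0.07 at 15 °C, and from -0.53 to 0.37 with a median of -0.04 at 18 °C. The groups overlapped over nearly their whole range, since crosses differed from each other by more than temperatures did, and the change showed inside crosses. Erg was lower at 18 °C than at 12 °C in 23 of 32 crosses, 13 of 16 in block 3 and 10 of 16 in block 4. It fell by 0.15 ± 0.04 (SE, 32 crosses; limma with cross as a block, Benjamini-Hochberg adjusted p = 0.0133), in a comparison in which 17.6% of the 74 genes were called and 6.76% were called lower. In whole embryos, fewer cells that express a gene and less of its RNA per cell cannot be told apart. In the plate row that held both temperatures, with 4 cultures at 18 °C and 8 at 12 °C on each plate, the Erg difference was -0.38 in block 3 and -0.10 in block 4. With plate row as a block the change was -0.32 and was not called (limma adjusted p = 0.105), and without replicate 2 of each combination it was -0.07 (limma adjusted p = 0.599). Leaving out female B4, C3 or C4, or male A3 or A4, also ended the call, with changes of -0.13 to -0.11 and limma adjusted p of 0.0505 to 0.0887.

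**Figure D2:**
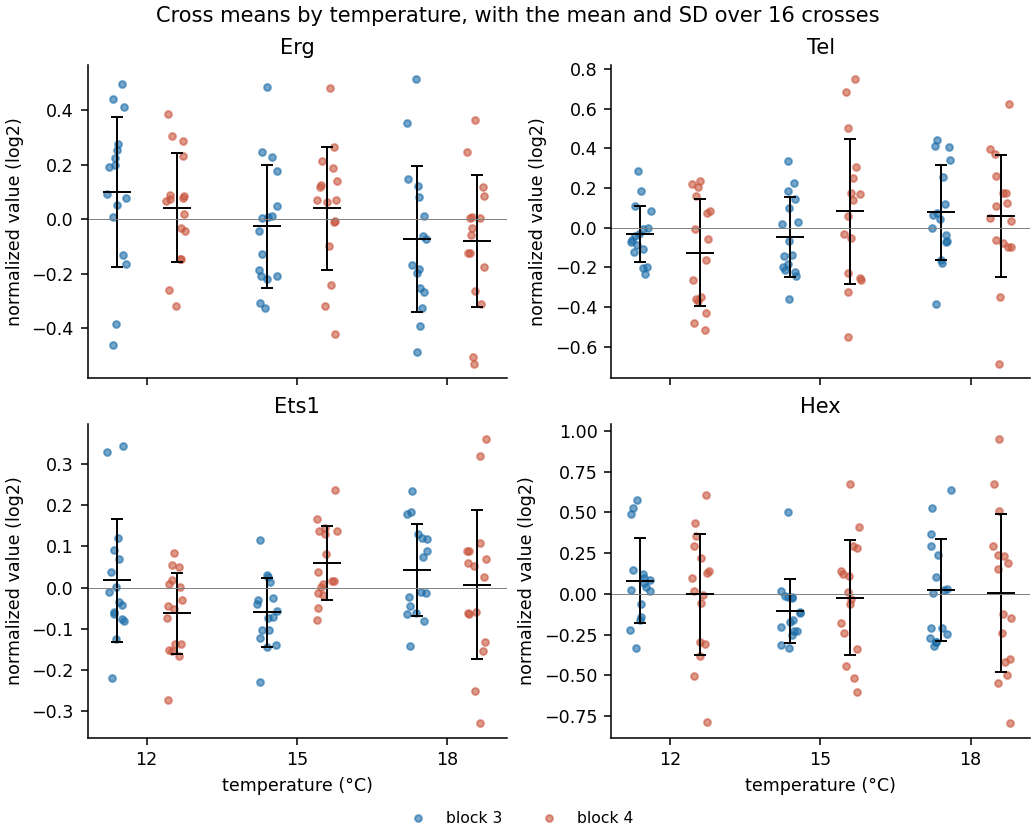
Normalized values (log2, y axis) of Erg, Tel, Ets1 and Hex at 12, 15 and 18 °C (x axis), 1 point for each of the 16 crosses of a block, with the mean and SD over crosses in black. The Erg mean at 18 °C lies below that at 12 °C in both blocks (-0.07 against 0.10 in block 3, -0.08 against 0.04 in block 4), and the spread over crosses is wider than that difference.

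The lower Erg signal at 18 °C was called for at least 1 probe of each of exons 1 to 4, and not for the exon 6 probe. In the normalized table, where 8.93% of 336 probes were called and 3.87% were called lower, the exon 1 probe fell by 0.25 ± 0.07 (-0.39 in block 3 and -0.11 in block 4; limma adjusted p = 0.0201) and the exon 4 probe fell by 0.17 ± 0.05 (limma adjusted p = 0.0082). The exon 4 probe was lower in 24 of 32 crosses and the exon 1 probe in 23. The exon 2 a probe changed by -0.18 ± 0.11 and the exon 6 probe by 0.01 ± 0.07, and neither was called. The non-normalized table, with each array centred on its own median, added both Erg probes missing from the normalized one. Its exon 2 b probe fell by 0.26 ± 0.05 (27 of 32 crosses lower; limma adjusted p = 0.000157) and its exon 3 probe fell by 0.15 ± 0.03 (24 of 32; limma adjusted p = 0.000437). There, 23.4% of 384 probes were called and 16.4% were called lower, and 4 of the 6 Erg probes were among the latter. Array medians rose with temperature in block 3, and their part in the fall of the array-centred values was not tested. Once array medians had been removed from the normalized values, with 15.2% of probes called, exon 1 and exon 4 of Erg gave -0.26 and -0.19 (limma adjusted p = 0.00187 and 0.000384).

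Ets1, read by its detected probe, moved the other way. The exon 1 probe had medians of -0.04, -0.16 and 0.18 at 12, 15 and 18 °C in block 3, within a range over all 3 temperatures of -0.57 to 0.61. In block 4 the medians were -0.09, 0.02 and 0.10, within a range of -0.45 to 0.78. Groups overlapped, with the highest median at 18 °C in both blocks. The probe rose by 0.16 ± 0.05 from 12 °C to 18 °C, in 23 of 32 crosses (limma adjusted p = 0.0244), against 5.06% of probes called higher. It rose by 0.18 ± 0.04 in the array-centred non-normalized table, in 28 of 32 crosses (limma adjusted p = 0.000138; 7.03% called higher), and by 0.14 ± 0.04 after array medians were removed (limma adjusted p = 0.00518; 6.55% called higher). The gene mean over 5 probes changed by 0.05 ± 0.03 and was not called (limma adjusted p = 0.250), and with plate row as a block it was -0.04 (limma adjusted p = 0.686). In the plate row that held both temperatures, the difference of the gene mean was -0.13 in block 3 and 0.19 in block 4. The exon 1 probe alone was not compared within plate rows, so its rise was not set apart from plate row. None of the 4 other Ets1 probes was called in the normalized table. In the array-centred table the 3 exon 6 probes fell by 0.28, 0.29 and 0.15 in a, b and c order (the last with limma adjusted p = 0.0254), while the arrays' own medians rose with temperature in block 3 by the values above. The part of those medians in the change of probes near background was not tested.

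**Figure D3:**
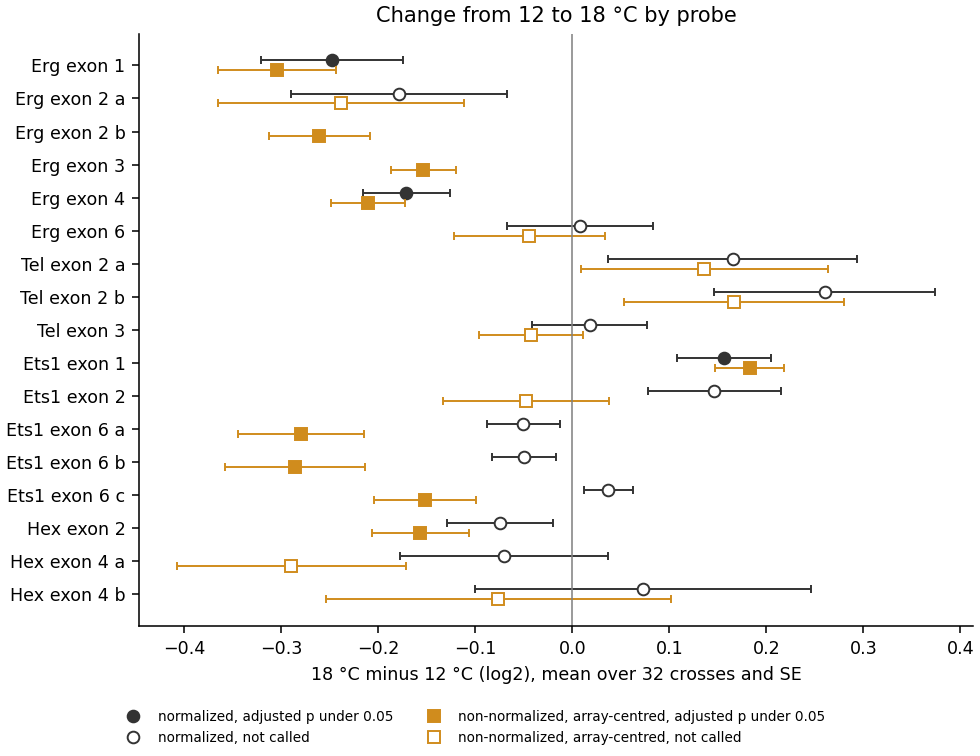
Change from 12 to 18 °C of each probe (x axis, log2, mean over 32 crosses with SE) in the normalized table (circles) and the array-centred non-normalized table (squares), with filled symbols for an adjusted p under 0.05. Erg exons 1, 2 b, 3 and 4 lie below 0 and Ets1 exon 1 lies above 0 in each table that holds them.

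In the normalized table neither Tel nor Hex had a called change between temperatures, as genes or by probe from 12 °C to 18 °C, while the detected Hex probe fell in the array-centred table. Tel values were higher by 0.15 ± 0.07 at 18 °C than at 12 °C, in 20 of 32 crosses (limma adjusted p = 0.115). In the plate row that held both temperatures the Tel difference was of the other sign, -0.37 in block 3 and -0.29 in block 4, and with plate row as a block it was -0.35 (limma adjusted p = 0.149). Most of that difference sat in the weaker exon 2 probes of Tel (0.17 ± 0.13 and 0.26 ± 0.11), and the exon 3 probe, detected in all cultures, gave 0.02 ± 0.06. Hex changed by -0.02 ± 0.08 as a gene (limma adjusted p = 0.864), with 14 of 32 crosses higher, and its detected exon 2 probe by -0.07 ± 0.05. That exon 2 probe fell by 0.16 ± 0.05 in the array-centred non-normalized table, lower in 22 of 32 crosses (limma adjusted p = 0.0162; 16.4% of probes called lower). Its means there at 12 and 18 °C were -0.04 and -0.26 in block 3 and 0.32 and 0.22 in block 4. Array medians rose with temperature in block 3, and their part in this fall was not tested. Hex also varied most between replicate cultures, with an SD of 0.39 on the gene scale, against 0.36 for Tel, 0.30 for Erg and 0.13 for Ets1. The Hex and Ets1 values include probes near background, so this order is not one of detected probes. Over crosses in block 4, SDs by temperature were 0.80 to 1.02 for Hex exon 4 b and 0.13 to 0.27 for Hex exon 2. Between 15 °C and 12 °C, and between 18 °C and 15 °C, none of the 4 genes was called, against 4.05% of genes in each comparison. The Erg values were -0.06 ± 0.04 for the first step and -0.08 ± 0.04 for the second (limma adjusted p = 0.728 and 0.330).

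Within crosses, the change of Erg from 12 °C to 18 °C was lower than that of Ets1 in 25 of 32 crosses, by 0.20 ± 0.05 (mean and SE over crosses), and lower than that of Tel in 24 of 32, by 0.30 ± 0.07. These are changes of gene values, and only 1 of the 5 probes behind the Ets1 mean was detected in most cultures. The difference from Tel was not seen inside the shared plate row, where Erg and Tel gave -0.38 and -0.37 in block 3 and -0.10 and -0.29 in block 4, nor with plate row as a block (-0.32 and -0.35). In the shared plate row the Ets1 gene value gave -0.13 in block 3 and 0.19 in block 4. The other pairs of members differed by 0.07 to 0.17, with SEs of 0.06 to 0.10. Among other genes of the same network, chosen by name, 1 of 18 regulators was called between 18 °C and 12 °C, where 17.6% of all 74 genes were. That was FoxB, a forkhead factor gene, which fell by 0.19 ± 0.05. Of 12 genes for skeletal products and similar effectors, 4 were called, with Gelsolin, a gene for an actin-severing protein, higher by 0.24 ± 0.07, and SpColl-ColAlpha, a collagen gene, higher by 0.17 ± 0.05. C-lectin, a gene for a lectin-like spicule matrix protein, fell by 0.17 ± 0.04 and cyclophilin, a gene for a prolyl isomerase, fell by 0.10 ± 0.02. Of 7 genes of other mesoderm, Mitf, a basic helix-loop-helix factor gene, rose by 0.09 ± 0.03 and Su(H), the DNA-binding factor of Notch signalling, fell by 0.08 ± 0.03. The median change was 0.01 in all 3 lists and 0.02 over all 74 genes.

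Of the 4 genes, Ets1 alone was called for a temperature response that differs between blocks, and its called probes were the 3 of exon 6. The gene value of Ets1 gave an F of 9.30 for temperature by block (limma adjusted p = 0.00349), with 16.2% of genes called, and the F of the others were 0.977 for Erg, 1.54 for Tel and 0.528 for Hex. In block 3, Ets1 medians were -0.02, -0.07 and 0.03 at 12, 15 and 18 °C, and in block 4 they were -0.05, 0.03 and 0.04. From 12 °C to 15 °C the block 3 value changed by -0.08 ± 0.03, lower in 11 of 16 crosses, and the block 4 value rose by 0.12 ± 0.03, higher in 15 of 16 (limma adjusted p = 0.0140; 12.2% of genes called in that block). Without replicate 1 the F was 2.89 and not called (limma adjusted p = 0.536). Exon 6 c, detected in 1.04% of block 3 cultures and in 0% of those of block 4, had the highest F among the Ets1 probes at 15.2 (limma adjusted p = 0.00139), and 9.82% of probes were called. The exon 1 probe gave an F of 2.74 and was not called (limma adjusted p = 0.235). With array medians removed, the gene's F was 2.44 (limma adjusted p = 0.363). The median over the 74 genes for the same step was -0.04 in block 3 and 0.05 in block 4, with the signs of Ets1.

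Of the 4 genes Erg had the largest F for females, with its highest F in a single probe. As genes, all 4 passed the test for differences between the females of a block, which 81.1% of the 74 genes did. Here and below, F values for parents take both blocks together unless a fit within a single block is named. Erg gave an F of 27.6 (limma adjusted p = 1.69e-07), Hex 5.37 (limma adjusted p = 0.00313), Ets1 3.93 (limma adjusted p = 0.0129) and Tel 3.33 (limma adjusted p = 0.0232). With only 1 replicate culture of each combination, Erg kept F of 12.6 to 14.3 (limma adjusted p at most 0.000195), Tel and Ets1 were not called with either replicate left out, and Hex was not called without replicate 1 (F 2.32, limma adjusted p = 0.118). By probe, the exon 1 probe of Erg ranked 1 among 336 for females, with an F of 38.2 (limma adjusted p = 1.31e-07; 61.3% of probes called). Cross means of this probe, as differences from the block mean, were 0.76 to 0.99 in the 4 crosses of female B3. They were -0.52 to 0.01 for female A3, -0.23 to 0.16 for C3 and -0.55 to -0.31 for D3. All 4 crosses of female B3 thus lay above the other 12 crosses of the block whichever male was used, and the means of B3 and D3 were 2.46-fold apart. The mean of the other 3 Erg probes for female B3 was 0.11 ± 0.16 (SD, n = 4 crosses), within the range of the other females' crosses (-0.37 to 0.16) for some crosses and above it for others, up to 0.30. For female D3 these probes had the lowest mean of block 3 too, at -0.21 ± 0.12.

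In block 4 the same Erg probe followed the male. Its cross means were -0.60 to -0.29 in the 4 crosses of male A4 and 0.13 to 0.52 in those of male C4. Males B4 and D4 lay between, at means of 0.01 and 0.04. Crosses of A4 were all below the other 12, and A4 and C4 were 1.75-fold apart. The F for males, over both blocks, was 12.2 (limma adjusted p = 0.00014, with 51.8% of probes called). The other 3 Erg probes did not share this order: their mean for male C4 was -0.12 ± 0.10, the lowest of the block, where the exon 1 probe was highest, and their mean for A4 was 0.00 ± 0.20. Across the 16 crosses the exon 1 probe and the mean of the other 3 had an r of 0.52 in block 3 and -0.07 in block 4, as a description over crosses that share parents and arrays. The exon 4 probe had differences of its own, with an F of 14.8 for females (limma adjusted p = 3.43e-05), where B4 and C4 were 1.35-fold apart, and of 10.9 for males (limma adjusted p = 0.000257), where A3 and B3 were 1.32-fold apart. The exon 3 probe, read from the array-centred table alone, was called for females (F 8.26, limma adjusted p = 0.000647; 70.6% of 384 probes called), with crosses of female D4 (-0.29 to -0.12) below the other 12 of block 4 and D4 and C4 1.26-fold apart. It gave an F of 0.398 for males (limma adjusted p = 0.910; 28.9% of 384 probes called) and male means within 1.05-fold of each other in both blocks. With the exon 1 probe left out, the gene value of Erg kept an F of 11.4 for females (limma adjusted p = 5.59e-05) and had 2.61 for males, which was not called (limma adjusted p = 0.0581). Sequence differences between the parents under the probes were not measured here, and their part in these values was not tested.

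**Figure D4:**
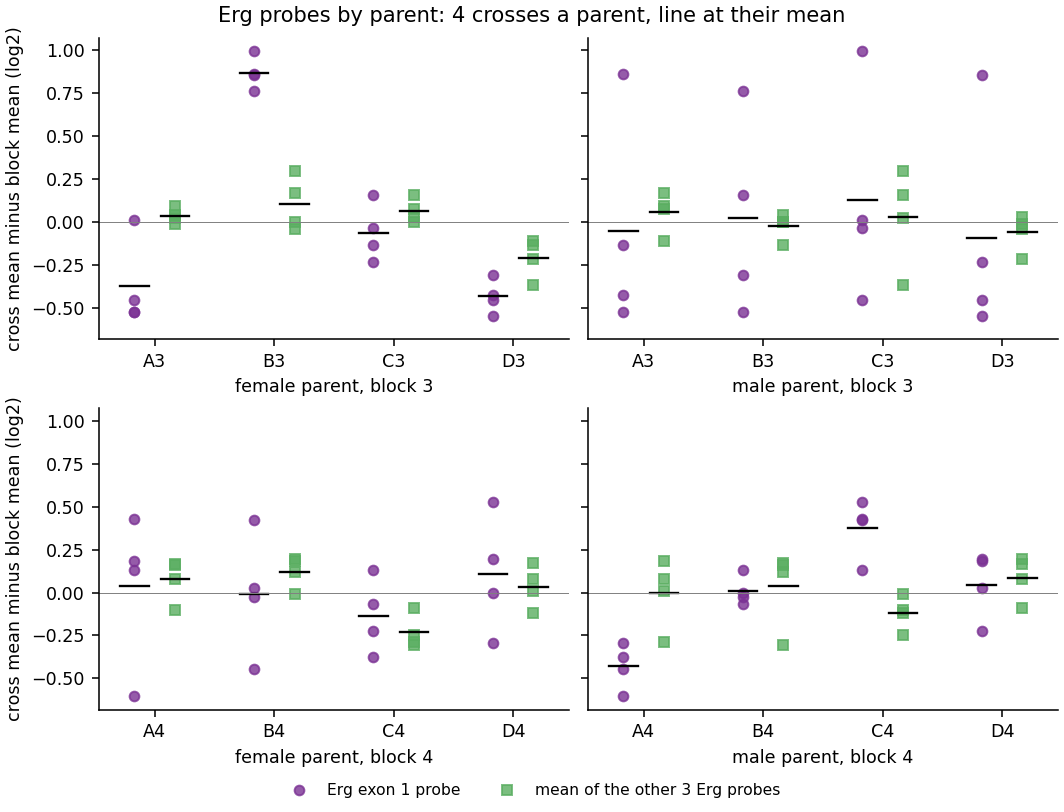
Cross means minus the block mean (y axis, log2) of the Erg exon 1 probe (circles) and of the mean of the other 3 Erg probes in the normalized table (squares), by female (left) and male (right) in block 3 (top) and block 4 (bottom), with a line at the mean of the 4 crosses of a parent. Circles of female B3 (0.76 to 0.99) stand above all others of block 3, and circles of male A4 (-0.60 to -0.29) below all others of block 4, while the squares of B3 (-0.04 to 0.30) and of A4 (-0.29 to 0.19) overlap those of other parents.

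For males the largest F of the 4 genes was that of Tel. All 4 genes were called for males, against 75.7% of genes, with F of 11.8 for Tel (limma adjusted p = 7.72e-05), 5.39 for Ets1 (limma adjusted p = 0.00435), 3.91 for Hex (limma adjusted p = 0.0161) and 3.41 for Erg (limma adjusted p = 0.0258). Without replicate 2, F was 2.15 for Tel (limma adjusted p = 0.237), 2.92 for Ets1 (limma adjusted p = 0.147) and 0.548 for Hex (limma adjusted p = 0.831), none called, and Erg was not called without either replicate. In block 4, Tel cross means were 0.03 to 0.33 for male D4 and -0.07 to 0.17 for C4, against -0.26 to -0.10 for B4 and -0.15 to 0.00 for A4. Crosses of B4 lay below all crosses of C4 and D4, and the means of D4 and B4 were 1.27-fold apart. In block 3 the crosses of male C3 (0.05 to 0.18) lay above those of D3 (-0.20 to -0.03), with means 1.19-fold apart. The exon 3 probe of Tel, the one detected in all cultures, gave an F of 13.0 for males (limma adjusted p = 0.000107), with C4 and B4 1.44-fold apart. Its highest males were A3 in block 3 (0.15) and C4 in block 4 (0.30), where the gene value had C3 and D4. The lowest males, D3 and B4, were the same for the probe and the gene value. For Ets1 the detected exon 1 probe gave 7.80 for males (limma adjusted p = 0.00133), with crosses of male D4 at 0.05 to 0.52 and those of A4 at -0.20 to -0.08. Male means of this probe in block 4 ran from -0.15 for C4 to 0.27 for D4, and the crosses of D4 were not all above those of the other males. The gene value of Hex was highest for female B4, whose crosses ran from 0.00 to 0.52, and its female means in block 4 were 1.29-fold apart. B4 was the highest female at the exon 4 probes, each detected in a minority of cultures, at 0.21 and 0.45, while the exon 2 probe had B4 at 0.04, D4 at 0.06 and female means within 1.09-fold. The detected exon 2 probe of Hex was called for females (F 3.13, limma adjusted p = 0.0420) and not for males (F 1.94, limma adjusted p = 0.163).

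Some of these parental differences were shared with the whole array. The median of all genes was also lowest for female D3 (-0.06) and highest for male C3 (0.08) in block 3, and lowest for female C4 (-0.06) and highest for male D4 (0.06) in block 4. With array medians removed, Ets1 as a gene was no longer called for females or males (F 1.44 and 1.36, limma adjusted p = 0.275 and 0.338), and Hex was not called for males (F 2.43, limma adjusted p = 0.0995). The Erg exon 1 probe kept F of 46.7 and 17.3 (limma adjusted p = 2.32e-08 and 1.77e-05), the Tel exon 3 probe kept 11.5 for males (limma adjusted p = 0.0002) and the Ets1 exon 1 probe kept 5.30 for males (limma adjusted p = 0.00895), where 53.6% of probes were called for females and 36.3% for males. No member was called for female by temperature or male by temperature, and neither was any other gene (0% of 74). In limma, 7 genes for females and 2 for males had an unadjusted p under 0.05 in these tests, and the lowest values among members were F of 1.86 for Hex by female (unadjusted p = 0.07) and 1.69 for Ets1 by male (unadjusted p = 0.104).

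Shares of variance describe the same parental differences. Females accounted for 30.4% of the variance of Erg within block and temperature, rank 4 among the genes, and males for 1.05%. Tel had 8.90% for males and 0.018% for females, and 90.5% between cultures of a combination. For Ets1 the shares were 11.5% for females and 14.8% for males, which fell to 2.24% and 0.48% once array medians were removed. Hex had 4.05% and 4.43%, with 9.85% for females by temperature. The medians over all genes were 10.3% for females, 7.94% for males and 69.8% between cultures. These shares were estimated by restricted maximum likelihood and carry no test.

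The detected probe of Hex rose with the stage of a culture. The labels give each culture a mean stage score, of unstated scale, and after removal of cross and temperature the scores spread with an SD of 0.0520. The exon 2 probe of Hex rose by 0.14 ± 0.04 per 0.1 of stage score (limma adjusted p = 0.0196, 191 cultures), when 0.893% of probes were called. Replicate cultures counted singly in this fit, with cross and temperature as separate terms. Differences between combinations of cross and temperature were therefore not removed. The slope of this probe was not fitted within replicate cultures of a combination, nor with sampling time as a covariate. The slope was 0.14 in block 3 and 0.16 in block 4. It stayed at 0.13 ± 0.03 with array medians removed (limma adjusted p = 0.0121; 0.893% of probes called) and was 0.10 ± 0.04 and not called in the array-centred non-normalized values (limma adjusted p = 0.238; 0.26% called). The exon 4 probes of Hex, undetected in most cultures, had slopes of -0.02 and -0.19, and the gene mean had -0.02 ± 0.06 (limma adjusted p = 0.898), in a comparison in which 1.35% of genes were called. Slopes of the Erg, Tel and Ets1 genes were -0.06 ± 0.04, 0.00 ± 0.05 and 0.01 ± 0.02, and none was called. The lowest slope among their probes was that of Erg exon 2 a, at -0.36 ± 0.12 (limma adjusted p = 0.123), made up of -0.05 in block 3 and -0.71 in block 4.

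**Figure D5:**
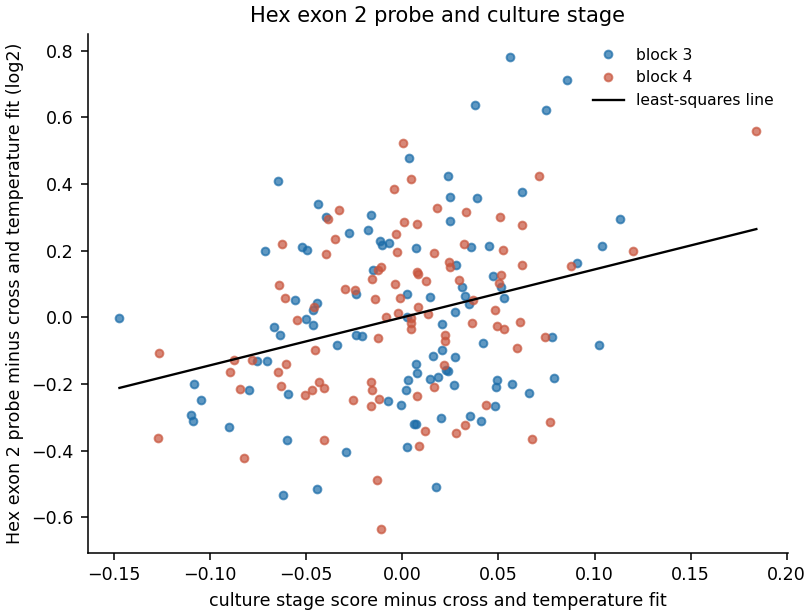
Hex exon 2 probe (y axis, log2) against the culture stage score (x axis, unit not stated), both after removal of the fitted cross and temperature values, 1 point for each of 191 cultures, with the least-squares line. The line rises by 0.14 per 0.1 of stage score, and points of both blocks lie along it with wide scatter.

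Over crosses, the gene values of Ets1 and Hex were correlated in both blocks and those of Erg and Hex in block 3, but not once array medians were removed, and for Ets1 and Hex not with the detected probe of Ets1 alone. Pearson's r and Spearman's rho were computed over the 16 cross means of each block for all 6 pairs, 12 relations in all, with 100000 permutations and p adjusted over the 12. Crosses share parents, so these p are smaller than independent families would give. Ets1 and Hex had an r of 0.83 and a rho of 0.75 in block 3 (permutation p = 9e-05 and 0.00127, adjusted p = 0.00108 and 0.00822) and of 0.62 and 0.68 in block 4 (permutation p = 0.0105 and 0.00468, adjusted p = 0.0419 and 0.0187). Erg and Hex had 0.64 and 0.75 in block 3 (permutation p = 0.00733 and 0.00137, adjusted p = 0.0419 and 0.00822) and 0.45 and 0.36 in block 4, not called (permutation p = 0.0818 and 0.171). The other 8 relations ran from an r of -0.02 to 0.50 and were not called. Without the 2 crosses farthest from the median on the x axis, r was 0.74 and 0.71 for Ets1 and Hex and 0.53 for Erg and Hex in block 3. Over all 2701 pairs of genes the median r was 0.53 in block 3 and 0.31 in block 4, and 92.7% and 81.7% of pairs lay below Ets1 and Hex, against 65.1% below Erg and Hex in block 3. With the detected probe of Ets1 in place of its gene mean, a choice made after seeing the data, Ets1 and Hex had an r of 0.60 and 0.46 in blocks 3 and 4, not called (adjusted permutation p = 0.0814 and 0.164), and Erg and Hex in block 3 passed by rho alone (adjusted permutation p = 0.0814 for r and 0.0164 for rho). Erg and Ets1 in block 4 also passed by rho alone in that setting (rho 0.69, adjusted permutation p = 0.0239). With the brightest probe of each gene, also chosen after seeing the data, Ets1 and Hex had 0.45 in block 3, not called, and 0.68 in block 4 (adjusted permutation p = 0.193 and 0.0347). In that setting Erg and Hex in block 3 had an r of 0.61 (adjusted permutation p = 0.0473 for r and 0.0501 for rho). Erg and Tel in block 4 had an r of 0.64 there (adjusted permutation p = 0.0473 for r and 0.0436 for rho). With array medians removed the median r was -0.01 and -0.02, the 12 relations ran from -0.49 to 0.41 and the lowest adjusted permutation p was 0.489. In the array-centred non-normalized table Ets1 and Hex had an r of 0.62 and 0.56 (adjusted permutation p = 0.0811 for both) and a rho of 0.69 in each block (adjusted permutation p = 0.0241). At 12 °C alone Ets1 and Hex in block 3 kept an r of 0.85 (adjusted permutation p = 0.00084), and at 15 °C and 18 °C alone they had 0.37 and 0.46, not called. In block 4 they had 0.46, 0.42 and 0.27 at 12, 15 and 18 °C, none called (adjusted permutation p = 0.182, 0.215 and 0.614).

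Within a gene, the correlation between probes depended on the block and the table. In block 3, the pairs of Ets1 exon 6 probes, each detected in 1.04% of cultures there, had r of 0.87 to 0.93 over crosses, and of 0.94 to 0.97 in the array-centred table. The detected exon 1 probe had r of 0.68 to 0.84 with them in the normalized table and of -0.32 to -0.25 in the array-centred one. In block 4 the exon 6 pairs had 0.47 to 0.69 in the normalized table, the exon 2 probe of Ets1 had 0.06 to 0.37 with them, and the exon 4 pair of Hex had 0.39. In block 3 the exon 2 probe of Ets1 had 0.65 to 0.67 with them, and the Hex pairs had 0.55 to 0.69. In the array-centred table, Hex exon 2 had -0.48 and -0.40 with the exon 4 probes in block 4. The Tel pairs in the normalized table ran from 0.12 to 0.40 in block 3 and from 0.15 to 0.40 in block 4. The 6 pairs of Erg probes in the normalized table ran from -0.25 to 0.60 in block 3 and from -0.30 to 0.43 in block 4. These are descriptions over 16 crosses that share parents and arrays. By the same measure, over 32 cross means centred within block with array medians removed, the genes most like Erg were gatae (r 0.40), snail (0.39) and tbr (0.32). Those most like Tel were tbr (0.47), soxb1 (0.45) and Mitf (0.39), and those most like Ets1 were gataC (0.52), nodal (0.46) and ficolin (0.36). No probe of ficolin was detected in most cultures of either block, so this value, like 4 of the 5 probes behind the Ets1 mean, comes from signal near background. For Hex they were Eve (0.47), SpColl-ColAlpha (0.44) and SM27 (0.41), and by block the r of Hex was -0.07 and 0.73 with Eve and -0.04 and 0.61 with SM27, in block 3 and block 4. The r of Erg with snail was 0.70 in block 3 and 0.21 in block 4, and snail stood only 0.31 and 1.21 above the negative controls there.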

How the data were processed

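Members and lists were chosen with earlier results of these data known. The authors' normalized values, deposited on a log2 scale (read from the values), are centred per probe within a plate; their method is not given in the sources used here. The submitters' processing notes list BeadStudio. The authors' non-normalized table, read as log2 intensity, ran from 7.18 to 14.7. The deposited tables were mapped by their headers, and 1 array column, noted by the authors for poor quality, was left out. The series value table held the same numbers as the normalized one (largest difference 0). Gene values are means of a gene's probes. Replicate cultures were averaged, and limma 3.58.1 (R 4.3.3) was fitted to all genes or all probes with cross as a block (temperature), the other parent and block (parents), or cross and temperature (stage, all cultures), with Benjamini-Hochberg adjustment at 0.05; F tests were used for parents and blocks. Nothing says how separately replicate cultures were raised, so p measures only the spread between these samples. Variance shares used lme4 1.1.37. Permutations, codon fits and figures used Python 3.11.15, numpy 2.4.6, scipy 1.17.1 and matplotlib 3.10.9. The limma fits and the permutation test were tested on simulated data. For the codon fit, 40 probes with a high weight for the listed strand were turned round, and 36 were then read as reversed. That check does not cover probes of uncertain strand. Named genes were the 4 members with every probe, the 3 genes most like each over crosses, and called network genes. Of the 4 names, 2 matched a symbol in the RefSeq gene table. Replicate numbers did not pair cultures: the median correlation of same-numbered deviations was -0.03, 0.00 and 0.07. The number of arrays limits the precision. Alternatives are given below.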

Additional observations from a re-analysis of the deposited data

Results flagged for a closer look

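Among the 4 crosses of male C4, the cross with female D4 stood apart for Tel at -0.073, when the other 3 ran from 0.14 to 0.17. Among the 4 crosses of female D4, the cross with male D4 stood apart for Ets1 at 0.19, when the other 3 ran from -0.04 to 0.00. Dixon's gap test marked these 2 of 64 groups of 4 crosses, and it marks about 1 in 20 groups by chance, so the marks are no more frequent than chance gives. The Ets1 change from 12 °C to 15 °C differed between blocks by 0.20 ± 0.05 (limma adjusted p = 0.00212). The Erg probes exon 2 b and exon 3, which the normalized table does not hold, stood 4.21 and 3.80 above the negative controls in block 4.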

How the results depend on the processing

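Of 739 alternative fits of the 4 genes and 84 alternative correlations, 639 and 47 kept their direction and their side of the threshold. The cause of the changes listed here was not tested, and the number of arrays and the signal over background limit all values. With replicate number as a replicate block, Erg at 18 minus 12 °C was -0.15 (limma adjusted p = 0.0152), and the block changed no call of a temperature step. F values for the parents and slopes per 0.1 of stage score are given without their p. With plate row as a block, the changes at 18 minus 12 °C were -0.32 for Erg, -0.35 for Tel and -0.043 for Ets1, those at 15 minus 12 °C -0.36 for Tel and -0.027 for Ets1, and those at 18 minus 15 °C -0.016 for Ets1 and -0.037 for Hex. Erg at 18 minus 12 °C was not called with the median of probes (-0.13, limma adjusted p = 0.0510), without its exon 1 probe (-0.11, limma adjusted p = 0.0886), without cross as a block (-0.15, limma adjusted p = 0.0811) or in block 4 alone (-0.12, limma adjusted p = 0.321). With the brightest probe, or with detected probes alone, Ets1 at 18 minus 12 °C was 0.16 (limma adjusted p = 0.0139 and 0.0120) and at 15 minus 12 °C -0.0046, its F of temperature by block was 2.78 and 2.81 (2.82 with other genes unchanged, chosen after seeing the data), the F of males for Hex was 1.99 and 2.07, and the Hex slope was 0.14. The brightest probe also gave -0.021 for Tel at 18 minus 15 °C and a slope of 0.056 for Erg. The median of probes gave -0.020 for Ets1 at 18 minus 15 °C and an F of females of 1.77 for Tel. In the array-centred non-normalized table, Ets1 was -0.12 at 18 minus 12 °C (limma adjusted p = 0.0401), -0.070 at 15 minus 12 °C and -0.046 at 18 minus 15 °C, with an F of temperature by block of 4.69 and a slope of -0.021. F of males there was 1.11 for Erg (1.55 with all 6 probes, 2.61 in the normalized table without exon 1, both chosen after seeing the data), 1.19 for Ets1 and 2.38 for Hex. After quantile normalization within plate, Ets1 had F of 1.58 (temperature by block), 1.35 (females) and 0.427 (males) and a slope of -0.023, and F of males was 2.11 for Erg and 2.24 for Hex. With array medians removed, Ets1 had F of 2.44, 1.44 and 1.36 in the same order, and Hex 2.43 for males. In block 3 alone, 15 minus 12 °C was -0.014 for Tel and -0.077 for Ets1, F of females was 4.32 for Tel, F of males 1.62 for Erg, 3.92 for Ets1 and 2.81 for Hex, and slopes were 0.031 for Erg and 0.028 for Hex. In block 4 alone, Hex was 0.0075 at 18 minus 12 °C, Tel -0.023 and Ets1 -0.052 at 18 minus 15 °C, and F of females 2.68 for Tel and 2.85 for Ets1. With plate column means removed, F of females was 1.46 for Tel and slopes were 0.0018 for Tel, -0.0048 for Ets1 and 0.013 for Hex. Without the 10 arrays of most distant median, F of males was 2.07 for Erg and the Tel slope 0.00098.

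Among correlations over crosses, r of Erg and Tel in block 3 was 0.14, 0.071 and 0.077 at 12, 15 and 18 °C alone. In block 4 it was -0.0021 with array medians removed, -0.067 in the array-centred table and -0.14 at 12 °C. With the brightest probes (chosen after seeing the data) it was 0.64 in block 4 and called (adjusted permutation p = 0.0473). Erg and Ets1 had -0.34 and -0.31 in blocks 3 and 4 with array medians removed and -0.28 and -0.17 in the array-centred table. Erg and Hex in block 4 had -0.058 at 18 °C. Tel and Ets1 had -0.25 and -0.15 in blocks 3 and 4 with array medians removed, and in block 4 -0.32 at 12 °C and -0.083 at 18 °C. Tel and Hex had -0.37 in block 3 with array medians removed, -0.30 there with the brightest probes (chosen after seeing the data), and -0.15 in block 4 at 12 °C.

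Leaving out each replicate or parent in turn gave ranges, at 18 minus 12 °C, of -0.23 to -0.065 for Erg, 0.029 to 0.27 for Tel and -0.099 to 0.065 for Hex. At 15 minus 12 °C they were -0.033 to 0.21 for Tel and -0.00081 to 0.052 for Ets1, and at 18 minus 15 °C -0.18 to 0.30 for Tel. F ranges were 2.89 to 9.55 for Ets1 (temperature by block), 0.786 to 2.87 for Tel, 2.21 to 2.24 for Ets1 and 2.32 to 4.17 for Hex (females), and 1.38 to 3.03 for Erg, 2.15 to 5.84 for Tel, 2.92 to 3.67 for Ets1 and 0.548 to 6.13 for Hex (males). Slopes ran from -0.013 to 0.026 for Ets1 and from -0.13 to 0.033 for Hex.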
